A study of Mus musculus with 7 samples.

Results

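The transcripts described here are those listed in the oocyte table under an annotated gene that lies on the other strand, with a mean of at least 1 RPM (reads per 1000000 mapped reads) over the 7 libraries. The table held 33437 oocyte transcripts, 23939 of them listed under a gene. Of these, 7182 lay on the strand opposite to that gene, and 4032 reached the mean of 1 RPM. They were thus chosen by strand and by mean level over all libraries, whose values are a description, and the difference between genotypes was not part of the choice. The table gave a distance of 0 to the gene for all 4032, so no group at a distance above 0 could be formed. By the annotated spans 3 of them did not overlap the gene they are listed under. The 4032 transcripts lay opposite 3720 genes, of which 218 had more than 1.

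Single germinal vesicle (GV) oocytes, the stage at the end of oocyte growth and before meiosis goes on, were sequenced from 21-day-old C57BL6 females, all of which were floxed/floxed at Setd1b. The study's methods name the background of the lines as C57BL/6OlaHsd. In 4 libraries the female was Gdf9-Cre positive (Setd1b cKO, here cKO), and in 3 it was Gdf9-Cre negative (WT). The methods also count Cre-positive females with 1 deleted and 1 wild-type allele as WT, but the labels give none of these 3 as such. Gdf9-Cre is a recombinase driven by an oocyte promoter and is active from early follicle growth, so SETD1B made before that stage is not removed. SETD1B adds methyl groups to histone H3 (H3K4), a mark found at active promoters. Each library held 1 oocyte, and which oocytes came from the same female is not given in the labels, so that p-values measure the spread between these oocytes. Mapped reads ran from 8582493 to 12972366 per library, and 1 read was worth 0.0771 to 0.117 RPM. Where no read was seen, the upper limit is 3 reads, which is 0.231 to 0.350 RPM and covers counting error only. RPM gives a share of a library, and the amount of RNA per oocyte was not measured.

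Antisense transcripts are RNAs read from the strand opposite to a gene. They arise at promoters that fire in both directions, inside introns, and where a neighbouring gene runs into or past the gene, and a pair of overlapping transcripts can form double-stranded RNA. Mouse oocytes are known for cutting such double-stranded RNA into small RNAs with Dicer, and for transcription that starts within genes and establishes DNA methylation there. The cDNA kit used here does not mark the strand of a read, and the strand setting of the counting is not given in the sources used here. For unspliced transcripts that overlap another, reads of the 2 strands therefore cannot be told apart, and 2978 of the 4032 overlapped another transcript of the table.

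The label antisense was checked against the GENCODE annotation of the same build (GRCm38), and it held for a part of the transcripts only. A transcript was taken as an annotated gene of its own strand where their spans shared at least 0.5 of their union. By this measure 1935 of the 4032 were the transcripts of a protein-coding gene and 442 of a non-coding gene, each listed in the table under its neighbour on the other strand. Another 424 touched a gene of their own strand without matching it. The remaining 1231 overlapped no annotated gene on their strand, and these are called antisense transcripts without a gene of their own. The 5 transcripts with the highest RPM, which is a share of reads and grows with length, were all coding genes of their own strand. The highest was Ubb, a ubiquitin gene (listed under Gm12279), at 8776 ± 1283 RPM over the 4 cKO oocytes (SD) and 9813 ± 1148 RPM over the 3 WT oocytes (SD). It was followed by Skp1a (under Gm26551), a subunit of ubiquitin ligases, and by Obox1 (under Ranbp2-ps7), an oocyte homeobox gene. Next came Ube2d3 (under 4930539J05Rik), a ubiquitin-conjugating enzyme, and Fbxw15 (under Gm42756), an F-box gene expressed in oocytes. Setd1b itself was among the 4032 (chromosome 5, 123142193 to 123168620, plus strand), since the table lists it under Gm26745, and no transcript was listed opposite Setd1b. It was at 8.31, 16.7, 12.8 and 2.68 RPM in the cKO and at 17.7, 16.3 and 8.61 RPM in the WT. The genotypes overlapped (log2 fold change -0.61, SE 0.49, adjusted p = 0.533 by limma), and a value over the whole transcript, sequence outside the deleted part included, does not check the genotype labels.

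A pair of divergent genes is shown by its promoter sequence. Of the 4032 transcripts, 590 started within 500 bases of the start of the gene on the other strand, a head to head arrangement, and 476 of these were coding genes of their own. For 369 of those that match a gene, the RefSeq promoter window (GRCm38.p6), 250 bases before to 50 after the start, was at hand. These windows held a median of 25 CG dinucleotides (range 1 to 59), against a median of 7 over all 32851 windows of the table. The 3 windows below belong to the head to head genes whose own change passed the test, with no overlap between genotypes, and whose window also holds the start of the opposite gene. CG dinucleotides are in capitals, and each sequence is read on the plus strand. They lie at chr12:4769045-4769344 for Pfn4 (opposite Fam228b), at chr11:72795976-72796275 for Zzef1 (opposite Cyb5d2) and at chr2:130563507-130563806 for Mrps26 (opposite 4930473A02Rik).
Pfn4: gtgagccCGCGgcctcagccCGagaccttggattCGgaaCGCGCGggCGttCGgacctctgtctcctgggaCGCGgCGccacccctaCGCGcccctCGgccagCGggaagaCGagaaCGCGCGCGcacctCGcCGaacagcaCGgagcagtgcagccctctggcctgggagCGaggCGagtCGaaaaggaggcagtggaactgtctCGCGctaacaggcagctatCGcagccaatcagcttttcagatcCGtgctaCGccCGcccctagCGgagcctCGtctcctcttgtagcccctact
Zzef1: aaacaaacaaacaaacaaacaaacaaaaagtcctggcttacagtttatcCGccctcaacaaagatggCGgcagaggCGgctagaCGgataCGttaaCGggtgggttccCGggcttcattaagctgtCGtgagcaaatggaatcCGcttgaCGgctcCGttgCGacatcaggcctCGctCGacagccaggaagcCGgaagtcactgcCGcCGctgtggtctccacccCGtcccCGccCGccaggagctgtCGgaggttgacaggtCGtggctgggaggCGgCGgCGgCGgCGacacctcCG
Mrps26: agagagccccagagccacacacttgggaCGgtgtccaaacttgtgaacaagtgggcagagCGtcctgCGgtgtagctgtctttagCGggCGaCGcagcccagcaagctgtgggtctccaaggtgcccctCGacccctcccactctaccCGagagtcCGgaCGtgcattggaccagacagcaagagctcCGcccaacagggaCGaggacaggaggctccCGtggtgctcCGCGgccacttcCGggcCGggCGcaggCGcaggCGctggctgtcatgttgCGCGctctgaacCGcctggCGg
The window of Pfn4 held 35 CG, a number reached by 6.95% of all windows. That of Zzef1 held 28, reached by 14.2%, and that of Mrps26 held 24 CG.

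Pfn4, a member of the profilin family of actin-binding proteins, was at 4.45, 8.48, 6.36 and 1.75 RPM in the cKO and at 37.3, 26.7 and 23.4 RPM in the WT. Every cKO oocyte was below every WT oocyte, and the log2 fold change was -2.38 (SE 0.40, adjusted p = 0.00867 by limma). The annotated start of Fam228b lies 78 bases from the start of the Pfn4 transcript, and the sense transcript of Fam228b had a log2 fold change of -0.15 (SE 0.43, adjusted p = 0.886 by limma). Mrps26, a mitochondrial ribosomal protein, was at 167, 105, 156 and 330 RPM in the cKO against 29.7, 33.0 and 101 RPM in the WT. The lowest cKO oocyte was just above the highest WT oocyte (log2 fold change 1.88, SE 0.46, adjusted p = 0.0390 by limma). This call was lost without WT replicate 1, WT replicate 2, cKO replicate 1 or cKO replicate 3, with an adjusted p of at most 0.170. Zzef1, a zinc finger protein, was at 66.3 ± 27.5 RPM over the 4 cKO oocytes (SD) and 20.3 ± 3.82 RPM over the 3 WT oocytes (SD; log2 fold change 1.59, adjusted p = 0.0144 by limma). Without WT replicate 1 its adjusted p was 0.0689, and the call was also lost without WT replicate 2. The sense transcript of Cyb5d2 had a log2 fold change of 0.26 (adjusted p = 0.800 by limma). Of the 585 head to head transcripts tested, 16 were higher and 4 lower (2.74% and 0.684%), where 3.76% and 1.95% of all transcripts tested were. Windows of the 8 higher ones at hand held a median of 19.5 CG and those of the 359 not called a median of 25, which is given with no test.

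The main comparison asked which of these transcripts change when SETD1B is lost in the oocyte. Genotypes were compared with limma on log2(RPM + 1) over all 18179 transcripts that reached 1 RPM in 3 or more libraries. A transcript was called where it changed by more than 2-fold and its p, adjusted by Benjamini-Hochberg, was under 0.05. Over all 18179 transcripts 5.71% were called, 3.76% higher and 1.95% lower in the cKO. Of the 4032 transcripts 4001 were tested, and 139 were higher (3.47%) and 62 lower (1.55%), close to these shares. With each library centred on its median transcript the split was 102 higher and 97 lower, so the share of higher calls went from 69.2% to 51.3%. Over all transcripts tested it went from 65.8% (683 higher and 355 lower) to 46.3% (458 and 531), so the excess of higher calls in the whole table turned around under this scaling. Their median log2 fold change of 0.13 stood beside 0.12 for all transcripts tested. No overlap between genotypes was seen for 819 of them (20.5%), against 20.3% over the whole table. The limit of 1 RPM in 3 libraries was met within the cKO but not within the WT by 477 of them, 52 called, and within the WT but not within the cKO by 93, 12 called. Of these, 79 and 7 had no oocyte of the other genotype at 1 RPM (25 and 6 called). Such transcripts were tested through the genotype where they are high, so the counts here are a description and p-values of theirs are no support by themselves. The calls depended on single libraries, as those of the whole table did: there were 43 higher and 21 lower without WT replicate 2, 59 and 32 without WT replicate 1, 77 and 40 without cKO replicate 3, and 96 and 38 without cKO replicate 1. The 1038 calls of the whole table became 289, 400, 538 and 592 in the same order. Of the 201 calls, 59 were kept whichever library was left out.

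The transcripts that are genes of their own and those without one gave different shares, and this difference was not tested. Of the coding genes listed under a neighbour, 39 were higher and 24 lower of 1930 tested (2.02% and 1.24%), with a median log2 fold change of 0.10. Of the 1211 tested transcripts without a gene of their own, 60 were higher and 23 lower (4.95% and 1.90%), with a median log2 fold change of 0.23. Non-coding genes gave 21 higher and 5 lower of 441, and transcripts partly over a gene of their strand 19 and 10 of 419. The transcripts without a gene of their own had a median of 4.19 RPM, so a band of level was also compared. At a mean of 1 to 8 RPM, 34 were higher and 10 lower of 825 (4.12% and 1.21%), beside 4.15% and 1.23% of all 8136 transcripts tested in that band. At 8 RPM and over they gave 26 higher and 13 lower of 386 (6.74% and 3.37%), beside 3.49% and 2.61% of all 9503. Leaving out WT replicate 2 lowered the 60 and 23 calls to 20 and 10, leaving out WT replicate 1 to 28 and 15, and leaving out cKO replicate 3 to 34 and 18. Leaving out cKO replicate 4 gave 73 and 40, and centring each library on its median transcript gave 44 and 34 (56.4% higher, beside 46.3% of the calls of the whole table). Of the 83 calls, 28 were kept whichever library was left out.

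**Figure D1:**
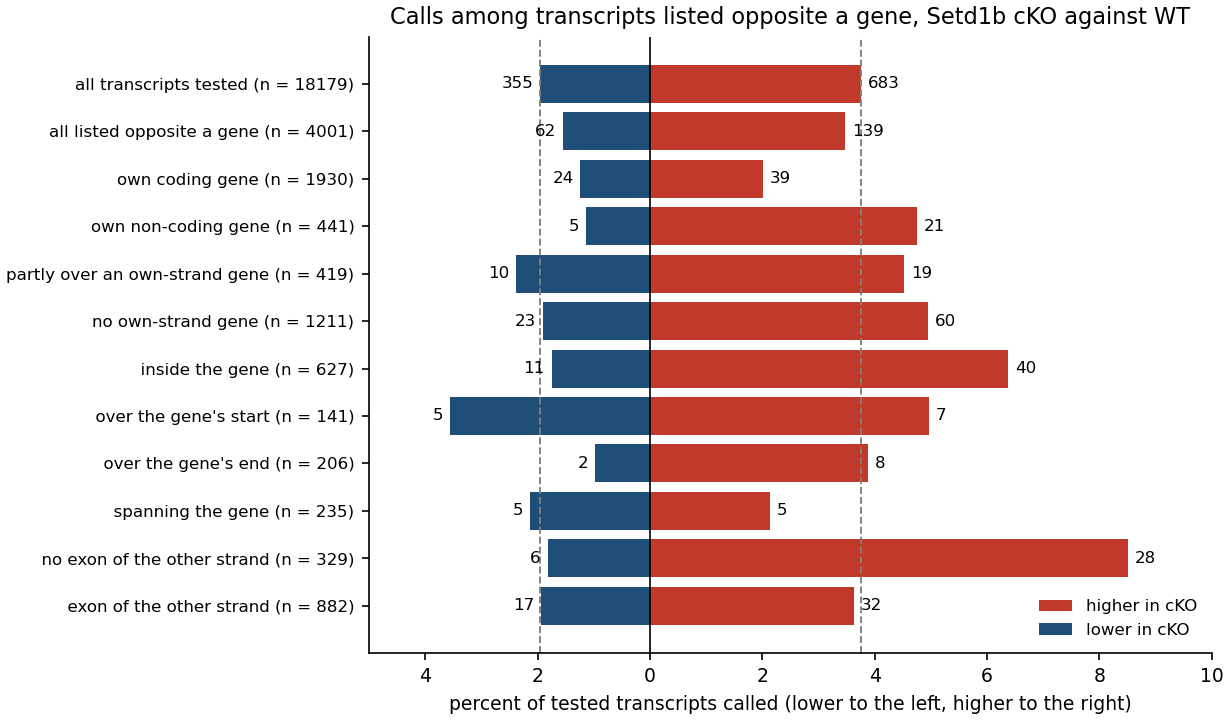
Share of tested transcripts called higher (right, red) or lower (left, blue) in cKO oocytes, in percent, for the whole table, for all transcripts listed opposite a gene and for their classes, with the last 6 bars splitting those without a gene of their own. Numbers at the bars are transcripts called, n is the number tested and dashed lines are the shares of the whole table, and the bar of transcripts whose span holds no exon of the other strand reaches 8.51% higher.

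Position within the gene was described next for the transcripts without a gene of their own. Inside the gene lay 640 of them, 40 higher and 11 lower of 627 tested (6.38% and 1.75%). All transcripts inside a gene, those with a gene of their own included, gave nearly the same shares, with 77 higher and 24 lower of 1208 tested (6.37% and 1.99%). Over the start of the gene lay 143 (7 higher and 5 lower of 141 tested), over its end 209 (8 and 2 of 206), and 237 spanned it (5 and 5 of 235). The span of 337 held no exon of any gene on the other strand, which places them within introns or beyond the ends of the gene. Of these, 329 were tested, and 28 were higher and 6 lower (8.51% and 1.82%), with a median log2 fold change of 0.35. Of these 34 calls, 8 higher and 3 lower ones were kept whichever library was left out. At a mean of 1 to 8 RPM they gave 18 higher and 1 lower of 245 (7.35% and 0.408%), beside the 4.15% and 1.23% of all transcripts in that band. Transcripts of the same band that the table lists under no gene gave 109 higher and 29 lower of 1902 (5.73% and 1.52%). The 894 with an exon of the other strand in their span gave 32 higher and 17 lower of 882 tested. No test compared these groups, and the scaling bears on them. With each library centred on its median transcript, the median log2 fold change of all transcripts moved from 0.12 to -0.03 and that of the transcripts without a gene of their own from 0.23 to 0.07. The share of mapped reads left after summing the reads of all transcripts of the table moved with the genotype too. It was 14.6% ± 1.30 over the 4 cKO oocytes (SD) and 9.73% ± 0.165 over the 3 WT oocytes (SD), with no overlap. Reads counted for more than 1 overlapping transcript enter that sum more than once, so it is not the exact share outside the transcripts. The part of this difference in these results was not tested.

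The transcripts without a gene of their own were also summed per library. Their summed level was 14956 ± 1353 RPM over the 4 cKO oocytes (SD) and 13930 ± 1326 RPM over the 3 WT oocytes (SD), and the genotypes overlapped. The median transcript of the class was at 4.12 to 5.01 RPM in the cKO oocytes and at 3.08 to 3.84 RPM in the WT oocytes, which did not overlap. At 1 RPM or more stood 1105 ± 25.7 of the 1231 in the cKO and 1045 ± 36.9 in the WT, and these ranges overlapped. Together all 4032 transcripts took 19.9% ± 0.372 of the reads summed over the table in the cKO and 19.2% ± 0.256 in the WT, which overlapped.

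Among the increases without a gene of their own and with a mean of at least 8 RPM, the largest lay opposite Gm40918, a long non-coding RNA (chromosome 13, 37717009 to 37732373, plus strand, over the start of the gene). It was at 21.9, 19.8, 33.9 and 43.3 RPM in the cKO and at 0.567, 0.617 and 1.68 RPM in the WT. All cKO oocytes were above all WT oocytes, and the log2 fold change was 3.95 (SE 0.34, adjusted p = 0.000714 by limma). It was tested through the cKO, where it is high, and 1 WT oocyte was above 1 RPM. Opposite Gm15218, another long non-coding RNA (chromosome 14, 45992613 to 46000061, minus strand), the level was 17.9, 15.7, 17.2 and 27.8 RPM in the cKO. In the WT it was 0.891, 0.771 and 0.655 RPM, less than 1 RPM in each oocyte (log2 fold change 3.51, SE 0.28, adjusted p = 0.000453 by limma). It was tested only through the cKO, so it had to differ, and its p is no support by itself. Inside Colgalt2, a galactosyltransferase that modifies collagen, a minus strand transcript (chromosome 1, 152431109 to 152438057) held no exon of the gene. Its levels were 47.0, 40.5, 40.3 and 49.5 RPM in the cKO and 3.56, 3.08 and 2.90 RPM in the WT. Both genotypes were tight and far apart, with a log2 fold change of 3.44 (SE 0.22, adjusted p = 0.000110 by limma). These 3 kept their calls whichever library was left out.

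**Figure D2:**
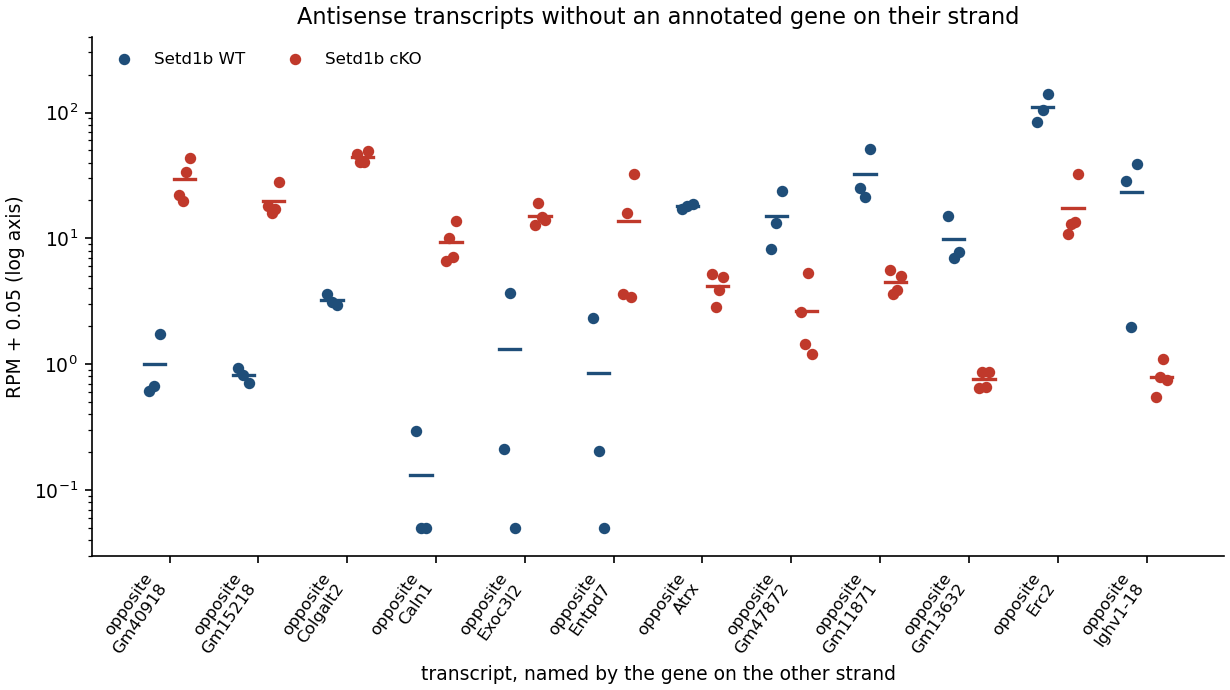
RPM (plus 0.05, log axis) of the 12 antisense transcripts without a gene of their own that the naming rule chose by their own change or with their sense transcript, each under the name of the gene on the other strand. Points are oocytes (blue, 3 WT; red, 4 cKO) and bars are means, and the genotypes are apart in all 12, with the WT between 0 and 3.62 RPM in the 6 that were higher.

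Short intronic transcripts were among them. Opposite Exoc3l2, an exocyst-like gene, a transcript of 435 bases (chromosome 7, 19492927 to 19493361, minus strand) was at 12.7, 19.02, 14.6 and 14.0 RPM in the cKO. WT oocytes were uneven, at 0.162, 3.62 and 0 RPM, and the log2 fold change was 3.18 (SE 0.48, adjusted p = 0.00551 by limma). This transcript and the one at Entpd7 were tested through the cKO, with 1 WT oocyte at 1 RPM. Opposite Entpd7, a nucleotidase, a transcript of 415 bases was at 3.56, 15.8, 3.40 and 32.3 RPM in the cKO and at 2.27, 0.154 and 0 RPM in the WT. Its levels were widely spread within the cKO, and its call (log2 fold change 2.73, adjusted p = 0.0472 by limma) was lost without any single library other than cKO replicate 4, with an adjusted p of at most 0.179. The sense transcript listed for Exoc3l2 and that for Entpd7 were without a read in all 7 libraries. Neither matched its gene by the span measure above, so they do not give the level of these genes. Over all 139 higher transcripts, 5 had 3 reads or fewer in each WT oocyte, where a fold change is a lower bound. One of these lay inside Caln1, a calcium-binding protein, and was at 9.32 ± 3.27 RPM over the 4 cKO oocytes (SD), at least 33.2-fold above 3 reads of the shallowest WT library.

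Among the decreases without a gene of their own, also from a mean of 8 RPM up, the largest spanned Ighv1-18, an immunoglobulin heavy chain variable segment (chromosome 12, 114681073 to 114947317, plus strand). It was at 0.495, 0.741, 1.04 and 0.699 RPM in the cKO and at 28.4, 1.93 and 39.1 RPM in the WT. WT replicate 2 was near the cKO, 1 cKO oocyte reached 1 RPM so that it was tested through the WT, and the call (log2 fold change -3.12, SE 0.73, adjusted p = 0.0322 by limma) was lost without WT replicate 1 or 3 or cKO replicate 1, 2 or 3, with an adjusted p of at most 0.131. Inside Erc2, a scaffold protein of the presynaptic active zone, a minus strand transcript without an exon of the gene (chromosome 14, 27983908 to 28007110) was at 10.8, 12.8, 13.5 and 32.4 RPM in the cKO. In the WT it was at 84.6, 104 and 140 RPM, above every cKO oocyte. Its log2 fold change was -2.69 (SE 0.35, adjusted p = 0.00359 by limma). A plus strand transcript spanning Gm11871, a processed pseudogene (chromosome 4, 20976441 to 21022982), fell from 32.6 ± 16.6 RPM over the 3 WT oocytes (SD) to 4.48 ± 0.951 RPM over the 4 cKO oocytes (SD; log2 fold change -2.52, adjusted p = 0.00338 by limma). Over the start of Atrx, a chromatin remodeller of heterochromatin, a plus strand transcript (chromosome X, 105926698 to 105933846) was at 5.15, 2.80, 3.83 and 4.89 RPM in the cKO and at 17.1, 18.1 and 18.7 RPM in the WT. The groups did not overlap, and the log2 fold change was -1.90 (SE 0.27, adjusted p = 0.00444 by limma). Of the decreases without a gene of their own named here, those at Erc2, Gm11871 and Atrx kept their calls whichever library was left out.

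Of the genes that the table lists under a neighbour, Pabpn1l, an oocyte poly(A)-binding protein of maternal mRNA clearance (chromosome 8, 122619706 to 122622842), had the largest decrease among all 62 that fell on the log2(RPM + 1) scale. By the ratio of mean RPM it was 15.3-fold lower, less than the transcripts opposite Ighv1-18 (31.1-fold) and Slc2a9 (19.5-fold). It was listed under Gm20388, a long gene model opposite 28 of the transcripts, and fell from 235 ± 61.0 RPM over the 3 WT oocytes (SD) to 15.4 ± 4.73 RPM over the 4 cKO oocytes (SD; log2 fold change -3.88, adjusted p = 0.000411 by limma). Gm15983, a non-coding gene opposite the lysine methyltransferase gene Eef2kmt, was at 5.62 ± 2.42 RPM in the cKO and 32.6 ± 12.5 RPM in the WT (log2 fold change -2.35, adjusted p = 0.00545 by limma). Gm16252, a non-coding gene opposite the lens filament gene Bfsp2, was at 7.95 ± 2.95 and 31.4 ± 3.96 RPM (log2 fold change -1.91, adjusted p = 0.00555 by limma). Among the 5 with the highest RPM, Obox1 was called lower, from 5883 ± 370 to 2337 ± 161 RPM (log2 fold change -1.33, adjusted p = 0.00864 by limma, and 0.0595 without WT replicate 2). Fbxw15 was also called lower, from 3025 ± 827 to 1149 ± 327 RPM (log2 fold change -1.41, adjusted p = 0.0228 by limma). That call was lost without WT replicate 1 or 2 or cKO replicate 1 or 3, with an adjusted p of at most 0.124. Ubb, Skp1a, Obox1 and Fbxw15 have closely related copies in the genome, and whether reads were shared among copies was not tested. No call was made for Ubb (log2 fold change -0.17), Skp1a (-0.02) or Ube2d3 (0.01).

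Increases among these genes included Slc16a6, a monocarboxylate transporter family member listed under Amz2 (chromosome 11, 109450865 to 109473146). It was at 16.6, 15.1, 15.2 and 13.9 RPM in the cKO and at 1.30, 0.771 and 0.655 RPM in the WT, a log2 fold change of 3.10 (SE 0.26, adjusted p = 0.000576 by limma), and it was tested through the cKO, with 1 WT oocyte at 1 RPM. Ccpg1os, listed under Gm44503, was at 29.0 ± 12.9 RPM over the 4 cKO oocytes (SD) and 3.46 ± 2.78 RPM over the 3 WT oocytes (SD; log2 fold change 2.84, adjusted p = 0.00545 by limma). A transcript partly over Ccl2, a chemokine gene, and listed under Gm17268 was at 60.6, 28.6, 68.3 and 12.4 RPM in the cKO and at 2.43, 6.48 and 4.68 RPM in the WT. The cKO oocytes were scattered and all above the WT (log2 fold change 2.78, SE 0.53, adjusted p = 0.0139 by limma, and 0.0640 without WT replicate 1).

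Whether the strands of a gene changed together was asked for the 2653 transcripts whose gene also had a sense transcript in the table, 2189 of them with both strands tested. The sense transcript is the one listed under the same gene on its strand, with the highest mean where there were several. Of the 2653, 1954 had a sense transcript that matched the gene by the span measure above. The sense transcripts at Gm15218, Gm47872, Amz2, Slc2a9 and Iqschfp matched no gene by it and did not overlap the antisense transcript. Antisense names here the transcript listed opposite the gene, also where it is a gene of its own strand. Both strands were called in 18 pairs, 8 higher and 10 lower, and 0 pairs had calls in opposite directions, also among the 10 pairs without a gene of their own on the antisense side. In 98 pairs the antisense transcript alone was called (68 higher and 30 lower) and in 91 the sense transcript alone. Across the 2189 pairs the log2 fold changes of the strands correlated with Pearson r = 0.27, and r was 0.34 for the 686 pairs without a gene of their own and 0.17 for the 990 coding genes. These correlations are across genes that share libraries and, where spans overlap, may share reads, and they are given as a description. Reads of the strands were within 5% of each other in every library in 4 pairs, listed under Rps21, Gm26825, Gm20052 and Med10, none of which was called.

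**Figure D3:**
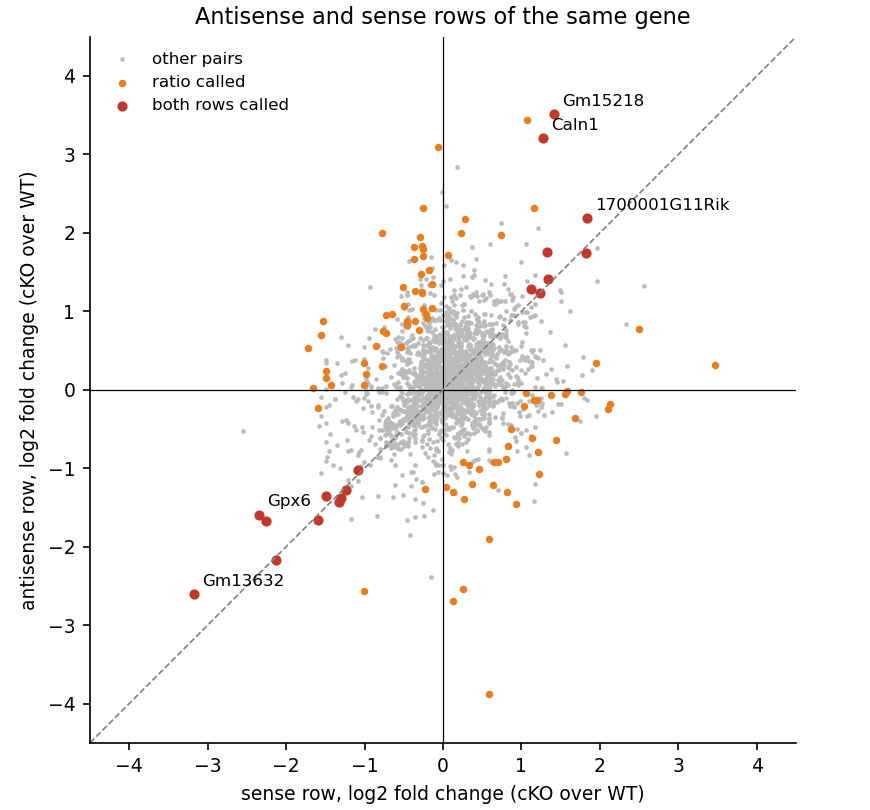
Log2 fold change (cKO over WT) of the antisense transcript (vertical axis) against that of the sense transcript of the same gene (horizontal axis) for 2189 pairs. Red points are the 18 pairs with both strands called, all changed in the same direction on both strands, orange points are other pairs whose ratio was called, and the dashed line marks equal change.

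Gm13632, a long non-coding RNA, fell on both strands. Its antisense transcript (chromosome 2, 70871809 to 70882943, minus strand) was at 0.594, 0.824, 0.609 and 0.816 RPM in the cKO and at 15.1, 6.94 and 7.67 RPM in the WT (log2 fold change -2.60, SE 0.31, adjusted p = 0.00279 by limma). The sense transcript was at 1.78, 9.55, 10.9 and 4.78 RPM against 58.5, 67.2 and 53.6 RPM (log2 fold change -3.17, SE 0.44, adjusted p = 0.00444 by limma). Neither strand overlapped between genotypes, and the antisense transcript was tested only through the WT, so that it had to differ. Caln1 rose on both strands, from 35.2 ± 0.956 to 86.8 ± 8.10 RPM for the sense transcript (log2 fold change 1.27, adjusted p = 0.00551 by limma) and with a log2 fold change of 3.21 (SE 0.31, adjusted p = 0.00118 by limma) for the antisense transcript, which was tested only through the cKO. At Gm15218 the sense transcript was at 2.43 ± 1.05 RPM in the cKO and 0.276 ± 0.411 RPM in the WT (log2 fold change 1.42, adjusted p = 0.0387 by limma), beside 3.51 for the antisense transcript given above. This sense transcript was under 1 RPM in every WT oocyte, so it too was tested only through the cKO and had to differ. Trim35, a gene of the tripartite motif family, lies head to head with 1700001G11Rik, and the log2 fold changes of the pair were 2.19 and 1.84 (adjusted p = 0.0187 and 0.0306 by limma). Both transcripts of this pair were tested through the cKO, each with 2 WT oocytes at 1 RPM or more. Without WT replicate 1 or cKO replicate 3 the call of Trim35 was lost, with an adjusted p of at most 0.0645. Opposite Gm47872 a transcript of 262 bases, 251 of them within exons of the other strand, had a log2 fold change of -2.17 (adjusted p = 0.0178 by limma, and 0.0752 without WT replicate 2) beside -2.13 for the sense transcript. Other pairs that fell on both strands included Gpx6, a glutathione peroxidase (-1.59 antisense and -2.35 sense), and Cth, an enzyme of cysteine synthesis (-1.67 and -2.26), which were picked after their values were seen.

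The ratio of antisense to sense was then tested in each pair, as the difference of log2(RPM + 1) between the strands, with limma over all 2252 pairs of tested transcripts. Of these pairs 4.17% were called, 2.35% with a higher and 1.82% with a lower ratio in the cKO. Among the 2189 pairs above the mean of 1 RPM, 51 ratios were higher and 39 lower. Ratio calls were fragile: leaving out WT replicate 2 left 1 higher and 1 lower, and each of the other libraries except cKO replicate 4 left between 3 and 9 higher and between 2 and 5 lower. Of the named ratios, those at Amz2 and Pabpn1l kept their calls under every alternative run. The pairs are therefore described by the values of both strands.

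The ratio at Colgalt2 was higher (log2 difference 2.36, SE 0.35, adjusted p = 0.0245 by limma), with a sense transcript at 9.70, 21.8, 9.14 and 14.8 RPM in the cKO and 5.59, 4.70 and 6.92 RPM in the WT. The sense strand was higher in every cKO oocyte too but was not called (log2 fold change 1.07, adjusted p = 0.0812 by limma). At Sorcs2, a sorting receptor of the VPS10 family, the antisense transcript (chromosome 5, 36012394 to 36031079, plus strand, over the end of the gene) was at 25.3, 28.7, 21.7 and 15.0 RPM in the cKO and 6.56, 2.93 and 5.43 RPM in the WT. The sense transcript was at 10.8, 14.3, 11.5 and 6.76 RPM against 32.4, 13.9 and 14.4 RPM, which overlapped. The antisense log2 fold change was 2.00 (SE 0.31, adjusted p = 0.00645 by limma), that of the sense transcript -0.78 (SE 0.35, adjusted p = 0.226 by limma), and that of the ratio 2.78 (SE 0.25, adjusted p = 0.00659 by limma). Opposite Gpc3, a cell surface proteoglycan, the transcript was at 3.96, 5.27, 4.70 and 8.97 RPM in the cKO and 0.243, 0.771 and 0 RPM in the WT (log2 fold change 2.32, adjusted p = 0.00521 by limma), beside -0.26 for the sense transcript. It too was tested only through the cKO, where it is high. At Amz2 the ratio of Slc16a6 to the sense transcript was higher (3.16, SE 0.19, adjusted p = 0.000617 by limma), with the sense transcript at 49.0 ± 8.66 RPM in the cKO and 50.8 ± 3.10 RPM in the WT.

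**Figure D4:**
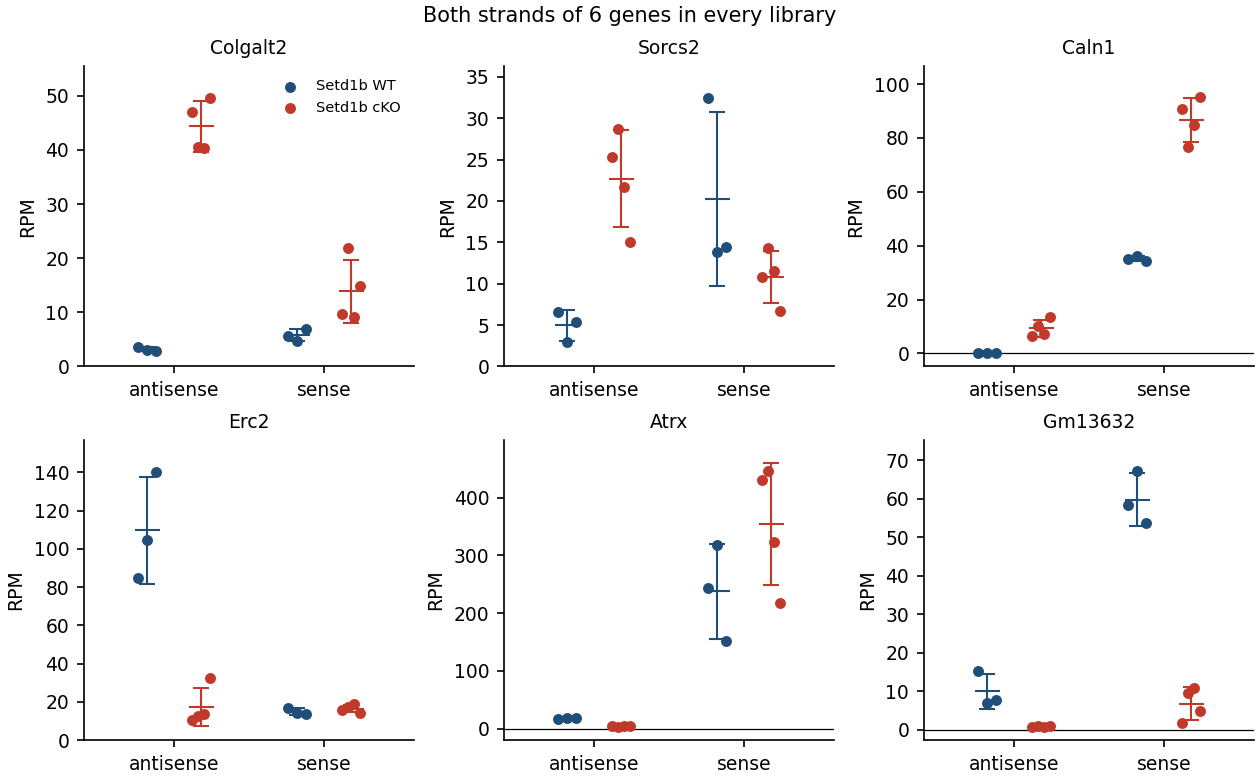
RPM of the antisense and the sense transcript of 6 genes in every library (blue, 3 WT oocytes; red, 4 cKO oocytes), with mean and SD. Antisense points are higher in the cKO in the top row and lower in the bottom row, while the sense transcript was called at Caln1 and Gm13632 and at none of the other 4.

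Lower ratios came from either strand. At Erc2 the sense transcript was at 15.5, 17.2, 18.7 and 14.2 RPM in the cKO and 16.9, 14.3 and 13.6 RPM in the WT, which overlapped in part (log2 fold change 0.13, adjusted p = 0.808 by limma), while the antisense transcript fell as given above (ratio -2.82, adjusted p = 0.0249 by limma). The sense transcript of Atrx was at 354 ± 106 RPM in the cKO and 237 ± 82.8 RPM in the WT (log2 fold change 0.58, adjusted p = 0.325 by limma), and the ratio was -2.48 (adjusted p = 0.0263 by limma). Inside Slc2a9, a urate transporter, the antisense transcript was at 0.297, 0.165, 0.348 and 0.816 RPM in the cKO and 9.15, 11.4 and 3.18 RPM in the WT (log2 fold change -2.54, adjusted p = 0.00581 by limma), beside 0.26 for the sense transcript. It was tested only through the WT, where it is high, and had to differ. The pair of Pabpn1l had the largest difference of all (-4.46, SE 0.18, adjusted p = 5.30e-05 by limma), and its sense transcript matched Tubb3, a tubulin gene listed under the same long gene model. Inside Iqschfp, by contrast, the antisense transcript was at 28.8 ± 6.77 RPM in the cKO and 23.996 ± 10.7 RPM in the WT and was not called, and the ratio of -3.15 came with a sense transcript that rose from 7.95 ± 3.73 to 97.7 ± 36.8 RPM (log2 fold change 3.47, adjusted p = 0.00118 by limma). A higher ratio (2.41, SE 0.48, adjusted p = 0.0375 by limma) was called at Igf1os, the annotated antisense gene of the growth factor Igf1, where the sense transcript fell from 31.7 ± 5.97 to 11.2 ± 6.08 RPM (log2 fold change -1.53, adjusted p = 0.0345 by limma). Igf1 itself, listed under it, was at 2.84 ± 1.67 RPM in the cKO and 0.952 ± 0.473 RPM in the WT (log2 fold change 0.88, adjusted p = 0.250 by limma).

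Genes of pathways tied to antisense transcription were examined from lists. Of 27 genes of the double-stranded RNA and small RNA machinery, 22 were tested, with 0 higher and 1 lower (1.95% of all transcripts tested were lower) and a median log2 fold change of -0.02. The lower gene was Piwil1, which binds piRNAs, from 11.6 RPM in the WT to 3.19 RPM in the cKO (log2 fold change -1.61, adjusted p = 0.00938 by limma). Transcripts opposite this list lay at Prkra, Tdrkh and Ago3, with log2 fold changes of 0.18, -0.25 and 0.35. Of these 0 were called, too few to be read against the 5.71% of all transcripts tested. Of 5 genes known as sources of oocyte small interfering RNAs, 4 were tested and 2 were higher (3.76% of all transcripts tested were), the deacetylase gene Hdac1 (log2 fold change 1.47, adjusted p = 0.00417 by limma) and Rangap1, a regulator of nuclear transport (1.20, adjusted p = 0.0196 by limma). The transcript opposite Rangap1 (log2 fold change 0.15) and the one opposite Pdzd11 (0.18), which is Kif4 and so a gene of the same list, were not called.

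Among imprinted genes, which often carry antisense transcripts, 10 of the transcripts lay opposite 8 of the 56 genes listed, and 0 were called, where 5.71% of all transcripts tested were, a share at which so few say nothing about these genes. Airn and Igf2r are a known antisense pair. The transcript opposite Airn at 14.2 RPM in the cKO and 17.8 RPM in the WT had a log2 fold change of -0.33 (adjusted p = 0.545 by limma), a second one opposite Airn had -0.40 (adjusted p = 0.654 by limma), and the one opposite Igf2r, which is Airn itself, had -0.15 (adjusted p = 0.804 by limma). The transcript listed opposite Nespas was Gnas itself, at 72.7 to 94.7 RPM in the cKO and 83.5 to 95.2 RPM in the WT (log2 fold change -0.11). The one listed opposite Gnas was close to it in every library, at 69.8 to 92.1 RPM and 81.1 to 92.0 RPM, and whether the strands shared reads was not tested. Opposite Mest the transcript of the neighbouring gene Copg2 was at 42.5 RPM in the cKO and 49.0 RPM in the WT (log2 fold change -0.21), and a second transcript opposite Mest was at 0.673 and 1.79 RPM (log2 fold change -0.72, adjusted p = 0.404 by limma). Of the oocyte growth and maternal genes themselves, 0 were higher and 7 lower of 40 tested (1.95% of all transcripts tested were lower), 2 of them, Obox1 and Pabpn1l, listed under another gene. Of 9 transcripts opposite genes of this list 0 were called, too few to be read against the 5.71% of all transcripts, with that opposite Nlrp2 at 109 RPM in the cKO and 250 RPM in the WT (log2 fold change -1.23, adjusted p = 0.0524 by limma). The transcript opposite Gdf9, the oocyte growth factor whose promoter drives the Cre here, was at 4.14 RPM in the cKO and 1.72 RPM in the WT (log2 fold change 0.90, adjusted p = 0.0874 by limma). Of 30 regulators of H3K4 and DNA methylation, Kdm1b alone had a transcript listed opposite to it, with a log2 fold change of 0.49 (adjusted p = 0.225 by limma). The table lists each transcript under 1 gene only. For 6 transcripts of genes of this list, Setd1b among them, that gene was one on the other strand.

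The tissue was checked by markers. Of 12 oocyte markers 11 were in the table, all tested and 0 called, and their summed level was 10675 to 15656 RPM in the cKO and 15132 to 20167 RPM in the WT, with a median log2 fold change of -0.38. Of 20 markers of granulosa and other somatic ovarian cells, 19 were in the table, 8 were tested and 0 were called, with a median log2 fold change of 0.39. Their sum was 89.8 to 111 RPM in the cKO and 66.1 to 94.2 RPM in the WT, and the ranges overlapped. The highest were Nr5a2 at 38.8 RPM in the cKO and 27.8 RPM in the WT, and Cyp19a1 at 26.6 and 22.8 RPM. Inha was at 8.07 and 1.71 RPM (log2 fold change 1.70, adjusted p = 0.225 by limma) and Hsd17b1 at 1.10 and 0.224 RPM, and the granulosa cell markers Foxl2 and Amh were at 0.0412 and 0.0435 RPM in the cKO and at 0 in the WT. Pecam1 went the other way, at 11.9 RPM in the cKO and 17.3 RPM in the WT (log2 fold change -0.57, adjusted p = 0.369 by limma). Means of Kitl, Col1a1, Col3a1 and Vim were also lower in the cKO, and those of the other somatic markers were higher. Their part in the results was not tested.

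At the level that bounds the choice, where 0 reads count as the deposited floor of 0.9 read, the transcripts just inside were Asphd1, listed under Kctd13, and a transcript opposite Serpinb2, with means of 1.0007 and 1.0028 RPM. Just outside were those opposite Nox1 and 4930578M01Rik, at 0.996 and 0.995 RPM.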

How the data were processed

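Transcript levels of 7 single GV oocytes (4 cKO, 3 WT) were taken from the deposited table of log2 RPM values. Per the study's methods, the authors trimmed the reads, mapped them with Hisat to GRCm38, dropped poorly mapped reads and counted the rest in SeqMonk over oocyte transcripts defined earlier, with isoforms merged. A transcript with 0 reads carries a floor of 0.9 read in these values. Whole reads were recovered from the deposited log2 values to within 0.1% for all values, so the depth of each library is known, and RPM of 0 was set where the floor stood. RPM is not scaled by length, so an order or band of RPM is one of read share and not of level per length.

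Genotypes were compared with limma 3.58.1 in R 4.3.3 (lmFit and eBayes with an intensity trend) on log2(RPM + 1) over all transcripts that reached 1 RPM in 3 or more libraries. A fold change on this scale understates the change of low transcripts. The ratio of antisense to sense was fitted in the same way over all pairs. Both fits were also run on simulated reads with known changes, which is a check of the code and not of the calls given here. The genes and transcripts named are, among called transcripts that averaged 8 RPM or more and whose genotypes did not overlap, the 8 with the largest change in each direction. To these were added up to 5 pairs called on both strands, up to 5 called ratios in each direction, the 5 of highest mean, called members and small RNA genes of the lists, the 2 on either side of 1 RPM, and Setd1b. Zzef1 and Mrps26 were added for their promoter windows after their values were seen. The members and gene lists were chosen with earlier results of these data known. Alternatives were other pseudocounts, filters, scalings, thresholds and sense transcripts, the replicate number as a block, and each library left out.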

Additional observations from a re-analysis of the deposited data

Results flagged for a closer look

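In 3 of the 35 values examined over the 4 cKO oocytes, 1 oocyte stood apart from the others by Dixon's ratio, the gap to the nearest oocyte over the whole range, and about 1.75 would be expected by chance. For Ccpg1os, listed under Gm44503, cKO replicate 4 was at 48.2 RPM and the others at 20.5 to 25.2 RPM (ratio 0.8294). For the transcript opposite Erc2, cKO replicate 4 was at 32.4 RPM and the others at 10.8 to 13.5 RPM (ratio 0.875). The transcript opposite 4930578M01Rik, just under the mean of 1 RPM, was at 6.14 RPM in cKO replicate 1 and at 0 to 0.412 RPM in the others (ratio 0.933). Without cKO replicate 4 the calls of Ccpg1os and of the transcript opposite Erc2 were kept.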

How the results depend on the processing

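Transcripts listed opposite a gene were called higher and lower in 139 and 62 cases, those among them without a gene of their own in 60 and 23, and the ratio in 51 and 39. With a pseudocount of 5 RPM these were 68 and 39, 24 and 13, and 31 higher ratios. Without a filter on low values they were 45 and 23, and 21 and 9. Transcripts that overlap no other, of which fewer were tested (1044), gave 48 and 13 (5.84% called, beside 5.02% of the 4001), and 21 and 6 without a gene of their own. Centring raised the lower calls to 97, and a mean of at least 4 RPM left 38 higher without a gene of their own. Leaving out 1 library gave 43 to 179 and 21 to 87, 20 to 73 and 10 to 40, and for the ratio 1 to 57 and 1 to 48. Without cKO replicate 4 and WT replicate 3, which lay apart on the second principal component (chosen after seeing the data), 216 and 100 were higher. With the replicate number as a block 94 and 45 were lower (195 and 84 higher), with 2 higher and 3 lower ratios. The numbers did not pair the oocytes (correlations of same-numbered oocytes 0.19, 0.29 and -0.13, and not every oocyte correlated best with its own number), and cKO replicate 4 had no WT partner. Voom on recovered reads, added after seeing the data, called 97 higher and 58 lower. The planned edgeR and DESeq2 fits were not run, although whole reads had been recovered, and voom was run in their place. Of 25 named calls 11 were kept under all alternatives and 14 were lost under at least 1, with 0 reversed. Changes of sign were seen only for log2 fold changes near 0 that were not called. Skp1a (under Gm26551) went from -0.015 to 0.074 with the block, from -0.084 to 0.074 when 1 library was left out and to 0.0062 without cKO replicate 4 and WT replicate 3. Ube2d3 (under 4930539J05Rik) went to -0.14 when centred and from -0.044 to 0.099 when 1 library was left out. The transcript opposite Nox1 went to -0.044 when centred, from -0.16 to 0.26 when 1 library was left out and to -0.22 without both. At 8582493 to 12972366 reads, a transcript under 0.231 to 0.350 RPM cannot be told from 0, and without strand-marked reads overlapping strands cannot be told apart.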
